A study of Mus musculus with 1152 samples.

Results

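The extracellular matrix genes of nasopharyngeal lymphatic endothelial cells (LECs) were examined in single-cell transcriptomes from aged mice. The set was chosen by gene name, with earlier results of these data known. It held 33 genes for basement membrane chains, matrix glycoproteins, elastic fibre proteins and small proteoglycans. Of these, 32 had a row among the 23168 genes of the table, and Efemp1 was not analysed here. All cells came from 1 group, c57bl/6 mice that the labels call aged without an age in weeks, and 656 cells were analysed. They were sorted as CD31+ PDPN+ cells from pooled nasopharyngeal mucosa of both sexes, placed singly in wells and made into full-length cDNA libraries by the Smart-seq3 protocol. No label tied a cell to an animal and no adult cell was in the table, so the cells stand for 1 pooled sample without replicates, and every difference below is a description of these cells with no test between conditions.

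A basement membrane is a thin sheet under an endothelium. Laminins, which are trimers of an alpha, a beta and a gamma chain, and type IV collagen each form a network in it, and nidogens and the proteoglycan perlecan link both. Lymphatic capillaries are known for a sparse, interrupted basement membrane, collecting vessels for a fuller one, and lymphatic valves for a matrix core that contains laminin alpha 5 and fibronectin. Fibulins, the TGF-beta binding protein Ltbp4 and emilin belong to elastic fibres, which tether lymphatic vessels to the tissue around them.

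Values are given as reads per 10000 reads of a cell, on a linear scale, and levels are compared between genes only after division by the length of their merged exons. Reads per cell ran from 7046 to 10727631 with a median of 148202. For shares of cells with a read, the 568 cells with at least 20000 reads were each thinned to 20000 reads, and 88 shallower cells were left out. Shares carry exact (Clopper-Pearson) 95% intervals that cover counting error only. Clustering without the matrix genes gave 5 clusters. One of 239 cells was called Ptx3+ capillary-like, since Ptx3, Stab2, Stab1, Mrc1 and Itih5 were all raised in it. Another of 75 cells was called upstream-valve-like from 3 of 8 upstream-valve markers, Cldn11, Neo1 and Gata2. Foxc2, Itga9, Nfatc1, Adamtsl1 and Tspan18 were not raised in it. Markers of other classes were raised too, Cd24a and Esam (precollecting), Procr (downstream valve) and Stc1 (Ptx3- capillary). Gata2 was read in 34.3% of its thinned cells, against 41.1% in the Apoe-Clu cluster described below. The stress and immune genes Gdf15 and Il6 were also among its leading genes, so the name is tentative. The remaining 3 clusters stayed without a class name. The Apoe-Clu cluster of 165 cells had raised precollecting genes (Foxp2, Apoe, Bmp4) together with raised downstream-valve genes (Gja4, Clu, Adm, Efnb2, Procr). The Tppp3 cluster of 107 cells had only Lyve1 and Ccl21a of the Ptx3- capillary markers once the matrix gene Fndc1 was left out, and the Ptn cluster of 70 cells was led by Pthlh, Anxa8 and Ptn. The Ptn cluster had 4 of 7 Ptx3- capillary markers raised (Ptn, Anxa3, Stc1, Tll1) and at most 1 of any other class, but it was given no class name because the capillary markers Lyve1 and Ccl21a were at 0.341 and 0.582 times the level of other cells. No cluster could thus be called precollecting, and a class-marking gene below is one that was higher in a cluster.

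The labelled cell type was checked on 9 LEC identity genes, whose median share of cells with a read was 96.8%. A pair of cells stood apart. The cell numbered 564 in the labels, placed in the Ptx3+ capillary-like cluster, had a summed level of 109.5 reads per 10000 over 9 fibroblast markers, and the next highest cell had 6.77. It held 77.4 reads per 10000 of Mbp, a gene of myelin, against 0.418 of Mmrn1 and 0.209 of Flt4, the lowest level of all 656 cells for both of these LEC genes. It was the cell with the highest level for 4 matrix genes, Dcn, Sparcl1, Col15a1 and Ecm1, and results that involve them are given with and without it. Leaving it out lost no call of a matrix gene and added 1, a lower call of Reln in the upstream-valve-like cluster. The cell numbered 260, in the same cluster, held 134.2 reads per 10000 of the mural gene Acta2, against a next highest mural sum of 32.1, with 0 of every other mural marker, 0.880 of Mmrn1 and 0 of Pdpn. It was the highest cell for 0 matrix genes. Without it the calls of a matrix gene in a cluster numbered the same, 11 higher and 18 lower, where a gene can be called in several clusters.

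The matrix genes of this set were detected broadly. The set was chosen with earlier results of these data known and holds Fndc1, a capillary marker of the study. Values over all genes are therefore given as a scale only, and say nothing of matrix genes outside the set. A median of 57.3% of thinned cells held a read of a matrix gene, over all 32 genes, whereas the median over the 20981 genes with any read was 3.70%. In 15 of the 32 genes, at least 50% of the thinned cells of every cluster held a read, against 12.6% of the 9217 genes looked at. These were the laminin chains Lama4, Lamb1, Lamb2 and Lamc1, the collagens Col4a1 and Col18a1, Nid1, Hspg2, Fn1, Reln, Mmrn2, Fbln5, Prelp, Bgn and Ltbp4. A gene was called higher in a cluster when its mean was 2 or more times the mean of the remaining cells and the intervals of its share of cells did not overlap. By this rule 11 of the 32 genes were higher in a cluster, against 4.75% of all genes looked at. By the mirror rule 11 of the 32 genes were called lower in a cluster, against 3.92% of all genes looked at. Col18a1, Fn1 and Bgn met both descriptions, 12 genes were shared without any call, and 8 were higher in a cluster without being shared, namely Lama5, Fndc1, Postn, Comp, Fbln2, Fbln7, Sparc and Sbspon. The other 9 were Col4a2, Nid2, Agrn, Emilin1, Mgp, Dcn, Col15a1, Sparcl1 and Ecm1, of which the last 3 were too rare to be looked at.

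**Figure D1:**
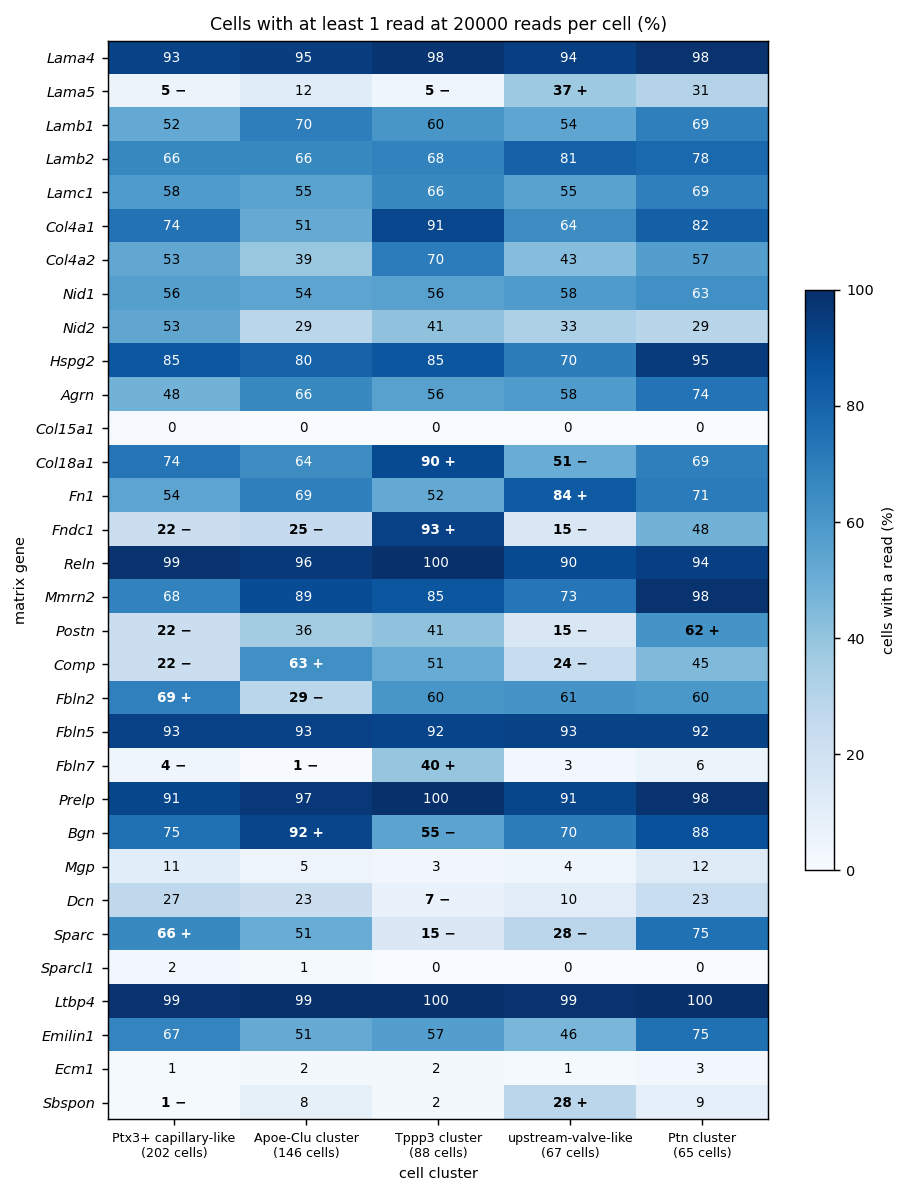
Share of thinned cells with at least 1 read (number and colour, %) for the 32 matrix genes (rows, in the order of the list) in 5 clusters (columns, with the number of thinned cells); + marks a gene called higher than in all other cells and − one called lower. Lama4, Reln, Fbln5, Prelp and Ltbp4 were dark in every column, whereas Fndc1 and Fbln7 stood out in the Tppp3 cluster and Lama5 and Sbspon in the upstream-valve-like cluster.

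Among laminin chains, Lama4, the alpha chain typical of vessel endothelium, was the most widely detected. Its level per cell ran from 0 to 47.6 reads per 10000 with a median of 4.44, and 94.7% of thinned cells held a read (95% interval 92.5 to 96.4). The cluster means of Lama4 lay between 4.80 and 6.11, the narrowest relative range of all shared matrix genes at 1.27-fold. Lamb1, Lamb2 and Lamc1, the beta and gamma partners, were detected in 60.04%, 69.5% and 59.5% of thinned cells, and none was called in any cluster. Lamb2 had 2.60 times the level of Lamb1 per kb of exon, and this ratio was 1.67 in the Apoe-Clu cluster and 3.87 in the upstream-valve-like cluster. With the longest transcript in place of merged exons these ratios were 1.64, 1.05 and 2.44.

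Lama5, the other alpha chain of vessel basement membranes, behaved differently. Its median was 0 and its highest cell held 31.3 reads per 10000, and 13.6% of thinned cells had a read. In the upstream-valve-like cluster the share was 37.3% (25.8 to 49.99) against 10.4% (7.85 to 13.4) in all other cells, and the mean was 1.77 against 0.224 reads per 10000, a fold of 5.77. Without the highest cell of the cluster the fold was 4.54. The groups overlapped widely, since most cells of the upstream-valve-like cluster had no Lama5 read and the median there was 0. In the Ptn cluster 30.8% of thinned cells held a Lama5 read (19.9 to 43.4), which was not called because the mean was 1.62 times that of other cells. Lama5 was called lower in the Ptx3+ capillary-like cluster, at 5.45% of thinned cells and 2.77-fold below the others, and in the Tppp3 cluster, at 4.55% and 2.58-fold below. Per kb of exon, Lama4 exceeded Lama5 by 12.9 times over all cells, by 45.8 times in the Tppp3 cluster and by 2.86 times in the upstream-valve-like cluster. The ratio depended on the length used, and with the longest transcript it was 25.8, 91.4 and 5.71. All 3 chains of a trimer with Lama4 were read in 36.3% of thinned cells with Lamb1 and in 41.9% with Lamb2. With Lama5 the shares were 5.28% with Lamb1 and 7.22% with Lamb2, and the latter was 20.9% (11.9 to 32.6) in the upstream-valve-like cluster against 2.48% (0.808 to 5.68) in the Ptx3+ capillary-like cluster. Lama5 alone differed in the same way, at 37.3% and 5.45%, and whether the joint shares go beyond the single shares was not tested. A read of all 3 chains says nothing of trimers made, and a chain without a read may lie below the depth of 20000 reads.

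**Figure D2:**
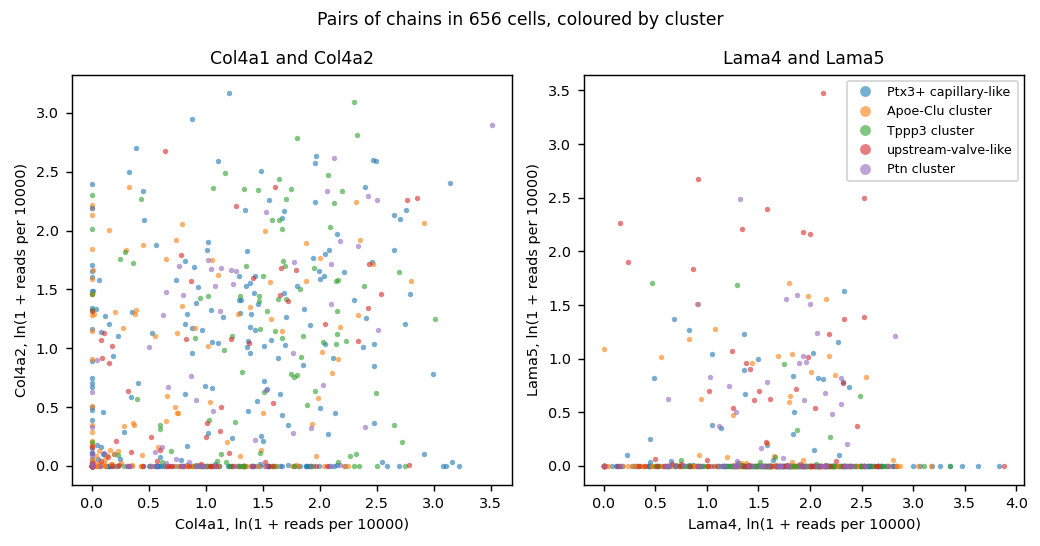
Each point is 1 of 656 cells, coloured by cluster, with the natural log of 1 plus reads per 10000 of Col4a1 against Col4a2 (left) and of Lama4 against Lama5 (right). Many cells lay on an axis, with a read of 1 chain only; the highest Lama5 values were mostly cells of the upstream-valve-like cluster.

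The promoter of Lama5 is printed as the laminin gene whose level set clusters apart, from RefSeq on GRCm38.p6, minus strand, chr2:180225810-180226109, which spans 250 bases before to 50 bases after the gene start. Capitals mark the GC box GGGCGG or its reverse complement CCGCCC, found at 4 places.
Lama5: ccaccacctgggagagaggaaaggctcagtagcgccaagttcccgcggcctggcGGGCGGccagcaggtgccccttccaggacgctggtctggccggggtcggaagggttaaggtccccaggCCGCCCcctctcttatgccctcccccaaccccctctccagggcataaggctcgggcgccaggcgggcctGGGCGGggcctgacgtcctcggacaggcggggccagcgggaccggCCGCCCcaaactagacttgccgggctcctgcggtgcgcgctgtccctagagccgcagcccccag
Over the promoter table, 35.7% of 32851 promoters held this motif on either strand.

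Col4a1 and Col4a2, the ubiquitous chains of type IV collagen, are neighbours on opposite strands of chromosome 8 and start 21 bases apart, with first exons that overlap by 22 bases. Their promoter windows are printed because the pair moved together across cells, as given below. Capitals mark the 78 bases, chr8:11312777-11312854, that both windows hold, written on the strand of each gene. Col4a1 is on the minus strand at chr8:11312777-11313076 and Col4a2 on the plus strand at chr8:11312555-11312854.
Col4a1: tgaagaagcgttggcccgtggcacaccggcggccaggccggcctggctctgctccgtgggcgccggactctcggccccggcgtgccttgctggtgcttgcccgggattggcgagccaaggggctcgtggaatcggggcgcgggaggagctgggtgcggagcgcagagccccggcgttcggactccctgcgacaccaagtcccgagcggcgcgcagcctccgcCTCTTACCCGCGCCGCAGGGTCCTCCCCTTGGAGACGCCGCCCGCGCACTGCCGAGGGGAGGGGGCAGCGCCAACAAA
Col4a2: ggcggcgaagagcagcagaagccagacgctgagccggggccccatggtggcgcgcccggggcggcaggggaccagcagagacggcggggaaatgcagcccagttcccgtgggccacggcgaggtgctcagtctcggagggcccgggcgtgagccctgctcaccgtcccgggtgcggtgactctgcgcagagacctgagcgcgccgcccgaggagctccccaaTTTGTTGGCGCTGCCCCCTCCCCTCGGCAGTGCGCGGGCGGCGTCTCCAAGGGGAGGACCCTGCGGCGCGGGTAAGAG
The GC content of the windows was 74.0% and 73.7%, with a median of 52.7% over all promoters in the table. The CCAAT motif (reverse complement ATTGG) was found at 1 place in each window, and in 37.4% of all promoters.

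Col4a1 ran from 0 to 32.6 reads per 10000 with a median of 1.77 and was detected in 70.6% of thinned cells (66.7 to 74.3). Col4a2 ran from 0 to 22.7 with a median of 0.339 and was detected in 51.4% (47.2 to 55.6). Both chains were highest in the Tppp3 cluster, at a mean of 4.44 and 3.13, and lowest in the Apoe-Clu cluster, at 1.86 and 1.23, but neither was called in a cluster. Per kb of exon Col4a1 had 1.39 times the level of Col4a2, and the ratio stayed between 1.26 and 1.56 in the 5 clusters. Both chains were read in 40.7% of thinned cells (36.6 to 44.8), Col4a1 alone in 29.9%, Col4a2 alone in 10.7% and neither in 18.7%. The joint share was 64.8% (53.9 to 74.7) in the Tppp3 cluster and 23.3% (16.7 to 31.0) in the Apoe-Clu cluster, with intervals apart. The single chains differed in the same way, Col4a1 at 90.9% and 51.4% and Col4a2 at 70.5% and 39.0%. Whether the joint shares go beyond the single shares was not tested. The rank correlation of the chains over 568 thinned cells was 0.307, and Col4a1 was the gene most like Col4a2 among 4990 genes compared. For Col4a1, Lyve1 came first at 0.315 and Col4a2 next. These points share a library depth by thinning, but the counts are sparse.

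Of the nidogens and proteoglycans of the basement membrane, Nid1 and Hspg2 were shared, and Nid2 and Agrn were not. Hspg2, which encodes perlecan, was detected in 83.3% of thinned cells, from 70.1% in the upstream-valve-like to 95.4% in the Ptn cluster, and its mean lay between 1.90 and 3.39 reads per 10000. Nid1 was even, with 54.1% to 63.1% of cells in each cluster. Nid2, the second nidogen, was found in 53.5% of the Ptx3+ capillary-like cells and in 28.8% to 40.9% of the other clusters, and its mean was 1.53 there against 0.406 in the Ptn cluster. Its fold of 1.99 in the Ptx3+ capillary-like cluster was the value just under the limit of a call, as that of Col18a1 below was just over it. Exons of Nid2 share 437 of their 5174 bases with the opposite-strand gene Rtraf, and reads within that stretch cannot be told apart without strand. Agrn, which encodes the heparan sulfate proteoglycan agrin, was detected in 57.9% of thinned cells and in 48.0% to 73.8% of each cluster, with means between 1.73 and 2.34.

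Col18a1, the type XVIII collagen from which endostatin is cut, was shared and yet uneven. Its median per cell was 1.81 with a highest value of 27.8. The Tppp3 cluster had a mean of 5.47 against 2.66 reads per 10000 in other cells, a fold of 2.02 that fell to 1.95, under the limit, without its highest cell. The upstream-valve-like cluster had a mean of 1.31, 2.45-fold below other cells, and 50.7% of its thinned cells held a read. Col15a1, a related collagen, was read in 2 of 656 cells. The cell numbered 564 held 120 of its 122 reads.

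**Figure D3:**
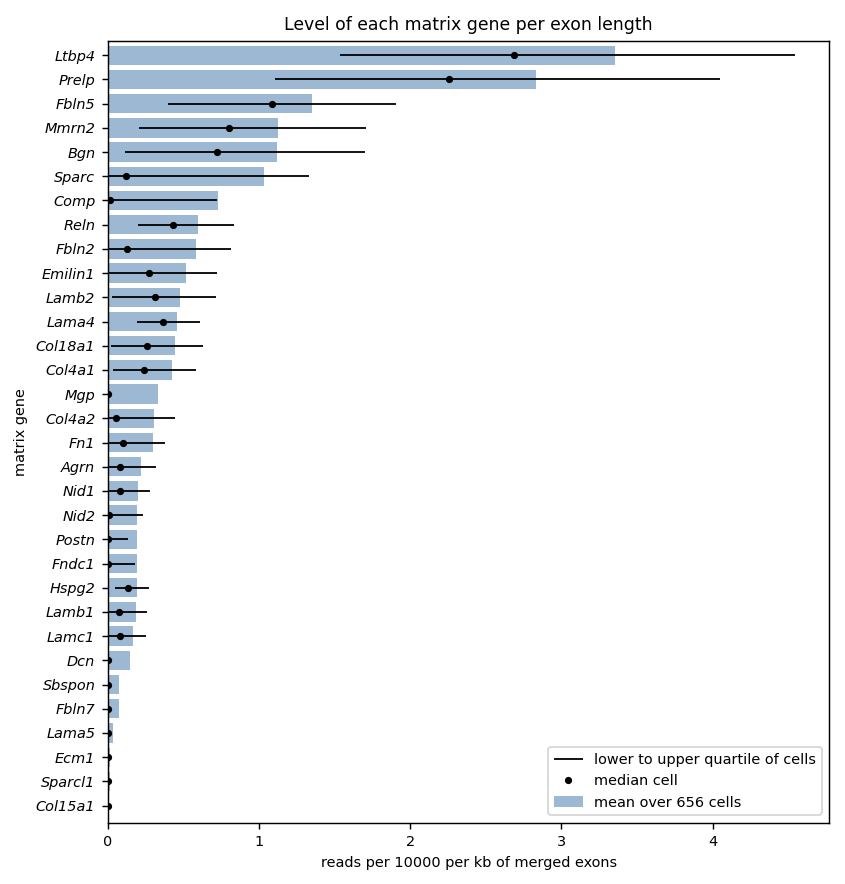
Mean level of each of the 32 matrix genes over 656 cells (bar), with the median cell (point) and the range from the lower to the upper quartile of cells (line), in reads per 10000 per kb of merged exons. Ltbp4 and Prelp led, and for Comp and Sparc the mean lay far above the median cell.

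Matrix glycoproteins included widely read genes and genes high in 1 cluster. Reln, which encodes the secreted glycoprotein reelin, was detected in 96.5% of thinned cells, with a median of 10.2 and a highest value of 109.2 reads per 10000. Its mean was 22.3 in the Tppp3 cluster and 17.5 in the Ptx3+ capillary-like cluster, against 6.69 in the upstream-valve-like and 6.998 in the Ptn cluster. The low means were 2.25-fold and 2.14-fold below other cells, but the intervals of the shares overlapped, so Reln was not called, except in the upstream-valve-like cluster once the cell numbered 564 was left out. Mmrn2, an endothelial multimerin that binds the receptor Cd93, was detected in 80.3% of thinned cells, in 68.3% of the Ptx3+ capillary-like and 98.5% of the Ptn cluster, where the mean of 7.37 was 1.76 times that of other cells.

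Fn1, which encodes fibronectin, was read in 63.0% of thinned cells, with a median of 1.20 and a highest value of 89.4 reads per 10000. In the upstream-valve-like cluster 83.6% of thinned cells held a read (72.5 to 91.5), against 60.3% (55.8 to 64.6) of the others, and the mean was 6.86 against 3.02, a fold of 2.23. That fold rested in part on 1 cell, since it was 1.87 without the highest cell, although the median of the cluster, 2.80, also exceeded the median of 1.20 over all cells. Exons of Fn1 share 292 bases with Apol7d on the opposite strand.

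Sbspon, a small protein with somatomedin B and thrombospondin domains, was rare, with a read in 7.39% of thinned cells and a highest value of 10.2 reads per 10000. In the upstream-valve-like cluster the share was 28.4% (18.0 to 40.7) against 4.59% (2.93 to 6.81), the mean 0.913 against 0.116, and the fold 4.69. It was called lower in the Ptx3+ capillary-like cluster, at 1.49% of thinned cells. Its exons share 2001 of their 2748 bases with Gm37509 on the opposite strand, and reads within that stretch cannot be told apart without strand.

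Fndc1, a fibronectin type III domain protein, had the widest gap in share of cells between a cluster and the rest. In the Tppp3 cluster 93.2% of thinned cells held a read (85.7 to 97.5), against 25.6% (21.8 to 29.8) of all other cells. The median was 5.64 and the highest value 32.3 reads per 10000 in the cluster, the mean was 7.001 against 0.882, and the fold was 7.24. Fndc1 was called lower in 3 clusters, by 2.90-fold in the Ptx3+ capillary-like, 2.41-fold in the Apoe-Clu and 5.55-fold in the upstream-valve-like cluster, whereas 47.7% of thinned cells of the Ptn cluster held a read.

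The promoter of Fndc1, the matrix gene with this widest gap, is printed from the same table on the minus strand, chr17:7827253-7827552, with the single GC box in capitals.
Fndc1: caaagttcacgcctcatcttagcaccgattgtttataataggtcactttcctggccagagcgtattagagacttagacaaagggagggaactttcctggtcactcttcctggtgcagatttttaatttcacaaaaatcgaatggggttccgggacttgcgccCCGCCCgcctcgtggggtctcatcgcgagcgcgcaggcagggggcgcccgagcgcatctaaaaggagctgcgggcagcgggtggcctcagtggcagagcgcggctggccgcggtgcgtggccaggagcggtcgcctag
Its GC content was 59.3%, and a TATAAA motif (reverse complement TTTATA) was found at 1 place, as in 13.6% of all promoters.

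Postn, which encodes periostin, was highest in the Ptn cluster, with a median of 0.895 and a highest value of 26.8 reads per 10000. The share was 61.5% (48.6 to 73.3) against 28.4% (24.5 to 32.6) of other cells, the mean 4.74 against 1.31, and the fold 3.44. It was called lower in the Ptx3+ capillary-like cluster by 2.35-fold and in the upstream-valve-like cluster by 3.43-fold. Comp, first known from cartilage, was highest in the Apoe-Clu cluster, where 63.0% of thinned cells held a read (54.6 to 70.8) against 31.99% (27.6 to 36.7), with a median of 1.88, a mean of 4.32 against 1.44 and a fold of 2.86. Cartilage and bone genes were detected in at most 0.915% of cells each. Comp was called lower in the Ptx3+ capillary-like cluster by 3.30-fold and in the upstream-valve-like cluster by 2.86-fold. Ecm1 was read in 24 cells, and its mean of 0.0347 reads per 10000 was 0.0257 without the cell numbered 564.

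The elastic fibre genes included the gene with the highest level of all. Ltbp4, which binds latent TGF-beta and helps elastic fibres assemble, had a median of 17.4 and ran from 0.0600 to 144.7 reads per 10000, so that no cell was without a read at full depth. After thinning, 99.1% of cells held one. Its mean was 33.3 in the Tppp3 cluster, 1.71 times that of other cells, and 13.9 in the upstream-valve-like cluster, 1.63-fold lower. Fbln5, which is needed for elastic fibre assembly, was detected in 92.0% to 93.2% of thinned cells of every cluster, a narrow range, and its mean was 12.5 in the Ptx3+ capillary-like cluster against 7.10 to 7.83 in the other 4. Emilin1, which encodes a glycoprotein of elastic fibres and anchoring filaments, was read in 60.04% of thinned cells without a call.

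The other fibulins were selective. Fbln2 had a median of 3.03 in the Ptx3+ capillary-like cluster and 0.00898 in the Apoe-Clu cluster. In the former 68.8% of thinned cells held a read (61.9 to 75.1), against 47.8% (42.6 to 53.1) of all others, and the mean was 5.80 against 2.52, a fold of 2.25. In the latter 28.8% did (21.6 to 36.8), and the mean was 2.59-fold below other cells. Fbln7 was read in 8.80% of thinned cells, but in 39.8% of the Tppp3 cluster (29.5 to 50.8) against 3.12% (1.76 to 5.10) of all others. Its mean there was 1.15 against 0.0575, a fold of 7.92 and the largest of the 32 genes, while the median was 0 and the highest value 18.9. In the Apoe-Clu cluster 1 of 146 thinned cells held a Fbln7 read.

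The small leucine-rich proteoglycans and other collagen-binding proteins were led by Prelp and Bgn. Prelp was detected in 94.7% of thinned cells, with a median of 8.16 and a highest value of 64.6 reads per 10000, and its cluster means ran from 6.08 in the upstream-valve-like to 15.6 in the Tppp3 cluster. Bgn, which encodes biglycan, was detected in 77.1%. In the Apoe-Clu cluster its median was 10.1 and its highest value 42.4, 91.8% of thinned cells held a read (86.1 to 95.7) against 72.0% (67.5 to 76.3), and the mean was 11.3 against 5.32, a fold of 2.10. In the Tppp3 cluster Bgn was 2.88-fold below other cells, with a median of 0.859.

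Sparc, a matricellular protein that binds collagen, was read in 50.7% of thinned cells. It was called higher in the Ptx3+ capillary-like cluster, with 65.8% of thinned cells (58.9 to 72.4) against 42.3% (37.2 to 47.6), a mean of 6.07 against 2.69 and a fold of 2.21. The Ptn cluster had a higher share of 75.4% and a mean of 6.18, but its fold of 1.67 was under the limit. Sparc was called lower in the Tppp3 cluster, at 14.8% of thinned cells and 5.48-fold below, and in the upstream-valve-like cluster, 2.68-fold below. Dcn, which encodes decorin, is a typical fibroblast gene. It was read in 20.4% of thinned cells, and its mean of 0.867 reads per 10000 was 0.738 without the cell numbered 564, which held 85.4. Of the other 655 cells, 196 held a Dcn read, with a highest value of 49.3. Dcn was called lower in the Tppp3 cluster, at 6.82% of thinned cells. In 231 thinned cells with a read of any fibroblast or mural marker 22.9% held Dcn (17.7 to 28.9), and in 337 without such a read 18.7% (14.7 to 23.3), intervals that overlap. The markers include the mural gene Kcnj8, read in 303 of 656 cells at full depth, so this split does not single out cells with fibroblast reads. Mgp, an inhibitor of calcification, was read in 7.57% of thinned cells, and Sparcl1 in 10 of 656 cells, with 176 of its 1488 reads in the cell numbered 564 and a mean of 0.0347 reads per 10000 that was 0.0207 without it.

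**Figure D4:**
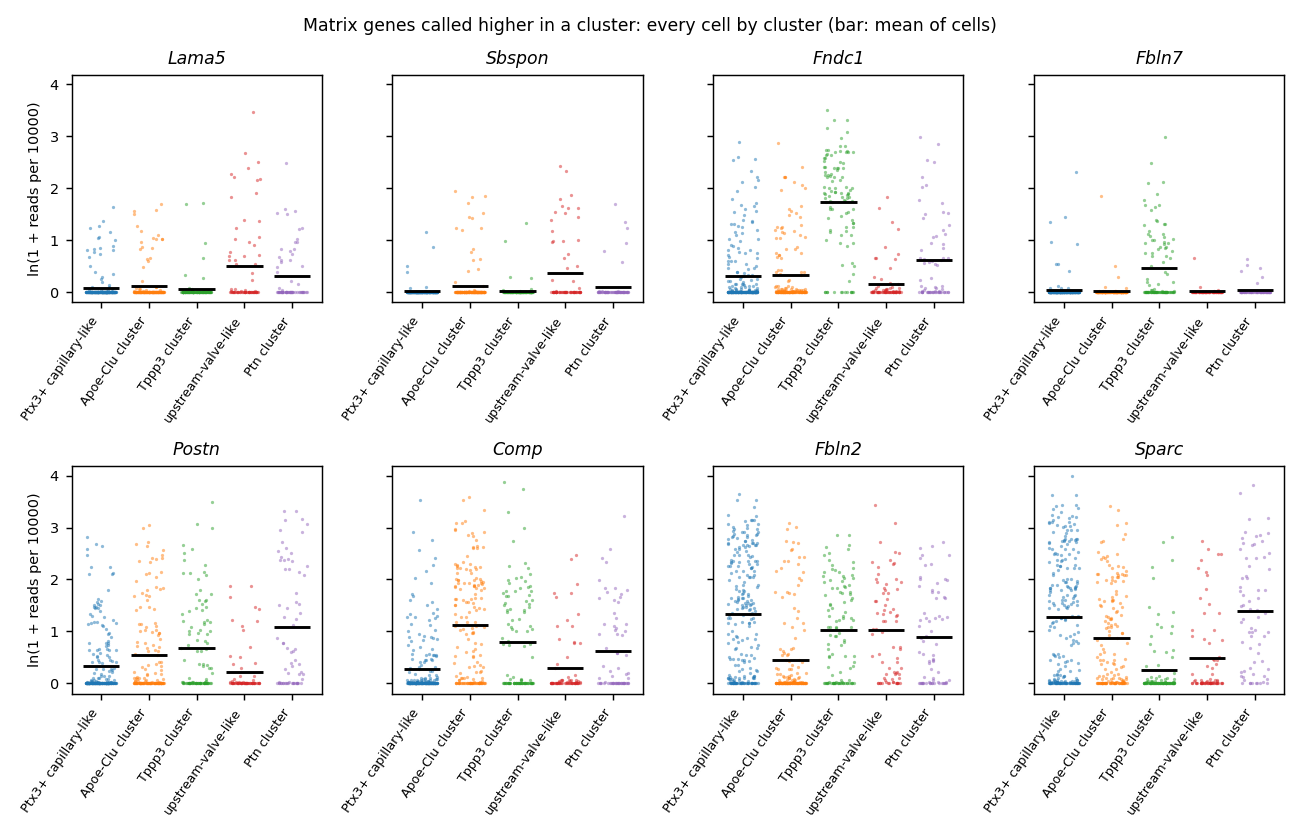
Natural log of 1 plus reads per 10000 of 8 matrix genes in every cell, by cluster; the black bar is the mean of the cells on this log scale. Fndc1 had few cells at 0 in the Tppp3 cluster, whereas the other 7 genes had many cells at 0 also in the cluster where they were called higher.

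Seen by cluster, each had a few matrix genes called, and the calls were not equally stable. The Tppp3 cluster had 3 of 32 genes higher (Fndc1, Fbln7, Col18a1), with 1.19% of all genes looked at called higher there, and 4 lower (Lama5, Bgn, Dcn, Sparc), with 1.25% called lower. The upstream-valve-like cluster had 3 higher (Lama5, Sbspon, Fn1), against 1.24%, and 5 lower (Col18a1, Fndc1, Postn, Comp, Sparc), against 1.05%. In the Ptx3+ capillary-like cluster 2 were higher (Fbln2, Sparc), against 1.28%, and 6 were lower (Lama5, Fndc1, Postn, Comp, Fbln7, Sbspon), against 1.47%. The Apoe-Clu cluster had 2 higher (Comp, Bgn), against 0.688%, and 3 lower (Fndc1, Fbln2, Fbln7), against 0.884%. The Ptn cluster had 1 higher (Postn), against 1.07%, and 0 lower, against 0.664% of all genes looked at. The calls were repeated in 8 other groupings of the cells, with each cluster matched to the group most like it. Col18a1 higher and Lama5 lower in the Tppp3 cluster and Comp lower in the upstream-valve-like cluster were kept in 2. Bgn higher and Fndc1 lower in the Apoe-Clu cluster and Sbspon lower in the Ptx3+ capillary-like cluster were kept in 4. The remaining calls were kept in 6 to 8. The median fold over the 27 matrix genes looked at in the upstream-valve-like cluster was 0.739, beside 0.991 over the 8416 genes looked at there. In the other clusters the median fold of the matrix genes lay between 0.814 in the Apoe-Clu cluster and 1.12 in the Ptn cluster, beside 0.954 and 0.998 over all genes looked at.

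These calls used linear means, which a few cells with many reads can carry. When the mean natural log was compared in place of the linear mean, 2 of the 11 genes remained called higher, Fndc1 in the Tppp3 cluster and Bgn in the Apoe-Clu cluster. This scale adds 1 to each value, against 0.1 in the folds above, and so also shrinks the folds of genes with low means. Sbspon, with a mean of 0.913 in the upstream-valve-like cluster, could not reach 2-fold on it. A call lost here therefore does not by itself show that a few cells carried it. With 1 added to the linear means in place of 0.1, Lama5, Fbln7, Comp and Postn kept the higher call that they lost on the log scale. For these genes the size of the added constant alone thus did not remove the call. When cells were classed by reads of Cldn11, Ptx3 or Stab2, and Foxp2 in place of clusters, 2 genes remained, Sparc and Sbspon. Cldn11 was detected in 246 of the 568 thinned cells, from 34.7% in the Ptx3+ capillary-like to 68.7% in the upstream-valve-like cluster. The class by Cldn11 thus took in cells of every cluster. No label marked valve cells, so how far Cldn11 marks valves here was not tested. The cells were also split by label number into parts of the pool that gave the calls, so a kept direction is no replication. The folds of all 29 calls, higher or lower, kept their direction in both the cells numbered up to 576 and those above, but the calls did not all hold with fewer cells. Of 11 higher calls 8 held in the former and 7 in the latter, and of 18 lower calls 12 and 6. Fndc1 in the Apoe-Clu cluster had a fold of 0.287 up to number 576 and of 0.812 above, where the shares were 31.4% in the cluster and 30.2% outside it. Lama5 in the Ptx3+ capillary-like cluster had folds of 0.321 and 0.595, and Comp in the Apoe-Clu cluster 2.20 and 5.42. Whether the numbers follow plates is not given in the labels.

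Thinned cells were also grouped, without any clustering, by reads of the marker pairs of the study, into groups that overlap. Sparc was read in 87.2% (72.6 to 95.7) of 39 cells with Ptx3 and Stab2, and in 37.6% (29.1 to 46.7) of 125 cells with Cldn11 but no Gja4. Lama5 was read in 22.4% (15.4 to 30.7) of the latter and in 7.69% (1.62 to 20.9) of the former, with intervals that overlap. Its share was 15.7% in cells with Ptn and Fndc1, 12.8% with Foxp2 and Lyve1 and 12.4% with Cldn11 and Gja4. Fn1 was read in 76.9% (68.3 to 84.0) of cells with Cldn11 and Gja4, and in 68.8% (59.9 to 76.8) with Cldn11 but no Gja4. In the other groups the share of Fn1 lay between 61.5% and 68.7%. Comp was read in 54.5% (45.2 to 63.6) of 121 cells with Cldn11 and Gja4, in 81 of 180 cells (37.6% to 52.6%) with Foxp2 and Lyve1, and in 5.13% (0.627 to 17.3) of the cells with Ptx3 and Stab2. Bgn was read in 87.6%, 83.9% and 61.5% of the same groups.

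The 32 genes together took a mean of 115 reads per 10000 in a cell, from 20.1 to 309.8 with a median of 107.8. The mean was highest in the Tppp3 cluster at 138 and lowest in the upstream-valve-like cluster at 84.5. Ltbp4, Reln, Prelp and Fbln5 made 48.1% of these reads. Per kb of exon, Ltbp4 came first at 3.36 reads per 10000, followed by Prelp at 2.83, Fbln5 at 1.35, Mmrn2 at 1.13, Bgn at 1.12 and Sparc at 1.04. With the longest transcript Ltbp4 at 4.03 and Prelp at 2.83 still led, but Bgn at 2.56, Sparc at 1.71, Fbln5 at 1.599, Reln at 1.21 and Mmrn2 at 1.13 followed in another order. Quartiles of neighbouring genes in this order overlapped, as the plot of levels shows. The core basement membrane chains lay lower, with Lamb2 at 0.480, Lama4 at 0.454, Col4a1 at 0.423 and Col4a2 at 0.304. A thinned cell held reads of a median of 17 of the 32 genes, from 6 to 25. Fewer transcripts in a cell and fewer reads captured from it cannot be told apart.

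Across the 568 thinned cells, the 25 matrix genes detected in at least 20% of them formed 300 pairs with a median rank correlation of 0.0575, beside 0.0167 over all pairs of the 4991 genes at that limit. The highest pairs were Prelp with Ltbp4 at 0.406, Col18a1 with Reln at 0.378, Reln with Ltbp4 at 0.363 and Col4a1 with Col4a2 at 0.307. With cluster means removed these were 0.331, 0.284, 0.329 and 0.255. Against all genes, Reln was most like Mmrn1, another multimerin and an LEC gene, at 0.702, Fndc1 was most like Tppp3 at 0.576, Sparc most like Plvap at 0.426, and both Prelp and Ltbp4 were most like Ece1, at 0.414 and 0.410. The lowest pair of matrix genes was Fndc1 with Sparc at -0.266, and Fndc1 with Bgn stood at -0.236. Most pairs lay near 0.

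**Figure D5:**
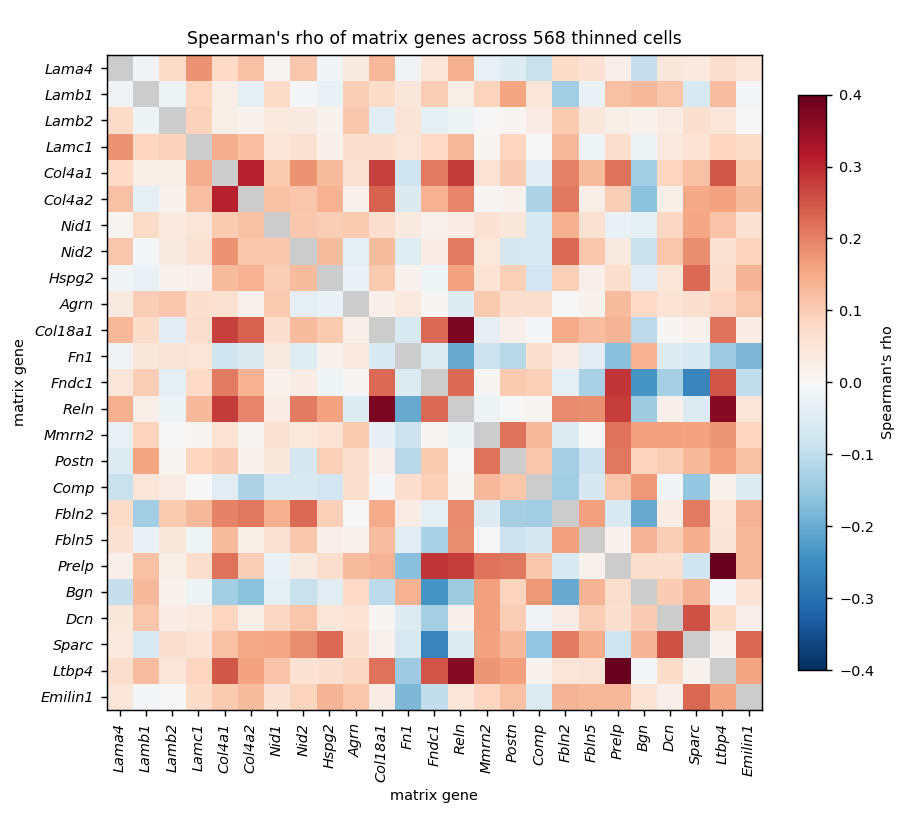
Spearman's rho of 25 matrix genes (rows and columns) over 568 thinned cells, red above 0 and blue below; the diagonal is grey. Reln, Ltbp4, Prelp, Col18a1 and the type IV collagen chains formed the reddest group, and Fndc1 was blue against Sparc and Bgn.

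Other matrix genes, from lists made with earlier results of these cells known, were fewer among those detected. Of 29 further basement membrane and vessel wall genes held, 6 were detected often enough to be looked at and 0 were called higher or lower, with Mmrn1 and Egfl7 read in every cell, and chains of other laminins and type IV collagens nearly absent (Lama2 in 0.610% of cells). Of 43 interstitial and elastic genes, 18 were looked at, 10 were higher in a cluster and 8 lower in one, against 4.75% and 3.92% of all genes looked at. In the Ptx3+ capillary-like cluster these were Tnc at 3.34-fold, Thbs1 at 4.59-fold, Ltbp1, Igfbp7, Crim1 and Ctgf. In the Tppp3 cluster they were Tnxb at 3.77-fold, Tgfbi at 3.89-fold, Vtn and Thbs3. Of 22 genes that process collagen and laminin, 1 was higher, the prolyl hydroxylase P4ha2 in the Ptn cluster, and 0 were lower. Of 24 matrix breakdown genes, 3 were lower in a cluster and 3 higher, among them Plat, the tissue plasminogen activator, at 5.17-fold in the upstream-valve-like cluster and also in the Ptn cluster, and Plau in the Ptx3+ capillary-like cluster. The inhibitors Timp3 and Timp2 were read in 98.6% and 96.1% of thinned cells without a call.

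Among 30 matrix receptor genes held, 6 were higher and 9 were lower in a cluster, against the same 4.75% and 3.92% of all genes looked at. The laminin-binding receptors Bcam and Itgb4 were higher in the Ptn cluster at 3.24-fold and 2.20-fold, and Bcam also in the Apoe-Clu cluster. Sdc1, a syndecan, was higher in the Ptn cluster at 2.98-fold and Sdc4 in the upstream-valve-like cluster at 3.35-fold. The collagen-binding integrin chain Itga1 was higher in the Ptx3+ capillary-like cluster at 2.76-fold, and the hyaluronan receptor Lyve1 in the Tppp3 cluster at 2.85-fold. Itgb1, the common integrin beta chain, was read in 78.7% of thinned cells, and Itga9, the integrin alpha chain known from lymphatic valves, in 61.4%, neither with a call.

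The other cell types that the sort could hold were at low levels. The 9 fibroblast markers were detected in at most 4.73% of cells each, and their summed level had a median of 0 in every cluster, with a highest value of 109.5 in the Ptx3+ capillary-like cluster and of 1.85 to 4.07 in the other 4. Of them Clec3b was called higher in the Tppp3 cluster, where 10.2% of thinned cells held a read against 1.04% of other cells. Its part in the higher Fndc1, Fbln7 and Col18a1 of that cluster was not tested. The mural list was led by Kcnj8, which was read in 46.2% of cells and called higher in the Ptx3+ capillary-like cluster, whereas Notch3 was at 0 in all cells and Myh11 was read in 4. The summed mural level had a median of 0.772 in the Ptx3+ capillary-like cluster and at most 0.00776 in the others, with a highest value of 134.2 in the former, the cell numbered 260, and of 5.19 to 15.4 in the others. Of 8 blood endothelial genes, Plvap was higher in the Ptx3+ capillary-like cluster at 2.25-fold and Cd34 in the Ptn cluster at 3.92-fold. The part of Kcnj8 and Plvap in the higher Fbln2 and Sparc of the Ptx3+ capillary-like cluster, and that of Cd34 in the higher Postn of the Ptn cluster, was not tested. Haematopoietic genes were read in at most 9.60% of cells each, glial genes in at most 4.57% and epithelial genes in at most 0.610%. Without the 393 cells that held any read of a fibroblast or mural marker, 263 cells were left, in which 6 matrix genes stayed called higher in a cluster. The other 5 lost the call with folds of 2.10 for Fbln2, 2.86 for Fn1, 1.86 for Col18a1, 1.81 for Sparc and 1.67 for Bgn, beside 2.25, 2.23, 2.02, 2.21 and 2.10 in all cells. Kcnj8 alone was read in 303 of the 393 cells left out. A mural read was held by 67.4% of the Ptx3+ capillary-like cells and by 41.3% to 53.3% of the other clusters. The removal thus largely followed Kcnj8 and the clusters, and reads from other cell types cannot be told apart from these.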

How the data were processed

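Reads had been aligned by the study to the mouse genome (mm10) with STAR and counted per gene with featureCounts, without collapsing PCR copies, and how reads shared by genes were counted is not given in the sources used here. The submitters' processing notes also name Seurat 4.1.0. The deposited values are, per the values themselves, the natural log of 1 plus reads per 10000, although the methods name a log2 scale: the linear values summed to 10000 in each cell. Whole reads were recovered from them (100% of values above 0 within 0.01 reads). Of 1152 labelled cells, 656 were analysed. Gene positions and exon lengths came from GENCODE M21 (GRCm38), with 22258 symbols matched.

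Cells were clustered in Seurat 5.3.0 (R 4.3.3) on 2000 variable genes, 15 principal components and resolution 0.7, the lowest that gave at least 5 clusters, with total reads, mitochondrial, dissociation and ribosomal scores regressed. Matrix genes were left out of the variable genes. Folds of means had 0.1 added to both sides, and genes were looked at when 10% of thinned cells held a read in the cluster or outside it. A marker was raised at 1.5 times the other cells, and a class name needed 3 raised markers and no rival class. The Ptn cluster met this and was still left unnamed. Names, and the choice to leave the Ptn and Apoe-Clu clusters unnamed, were set after the data were seen, so these clusters need not hold the cells of the study's classes. Intervals used scipy 1.17.1. No doublet caller was run, as 1 cell was sorted per well.

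All 32 genes of the set were named in the text, with other genes named when called or leading a likeness. The set, the gene lists and the tests were chosen with earlier results of these data known. The call rule and thinning were also run on simulated data, with a group of cells placed at random and genes that varied independently. That does not show how the rule behaves on clusters found from the cells themselves. Of the 32 genes, 22 had a promoter in the RefSeq table. Motifs were searched on both strands.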

Additional observations from a re-analysis of the deposited data

How the results depend on the processing

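Of the alternatives that kept the clusters, none turned the direction of a call. Those that changed only the fold asked for, the detection filter or the thinning left the folds as they were, so they could not turn one. Those that left cells out used parts of the pool that gave the calls. For other groupings of the cells it was recorded only whether a call was kept, not its direction. Shared genes numbered 15, and 9 with 30 principal components, 8 with at least 2 reads asked for and 8 with a share of 60% asked for. Genes higher in a cluster numbered 11, and 17 at a fold of 1.5, 5 at a fold of 3, 2 by mean natural logs, 5 with 1 added, 7 without regression, 2 with classes by single markers, 6 without cells with a fibroblast or mural marker and 7 in the cells numbered over 576. Calls higher over all clusters, 11 in the main rule, became 20, 5, 2 and 5 under the first 4 of these, and 6 and 7 under the last pair. Calls lower, 18 in the main rule, became 6 at a fold of 3, 3 by mean natural logs, 6 with 1 added, 10 without thinning, 9 without the marker cells and 7 in the cells numbered over 576. The median level per kb was 0.29998, and 0.244 without the marker cells, 0.137 from means of logs and 0.369 with the longest transcript. Shares with all chains read moved with depth. Col4a1 with Col4a2, at 40.7%, was 59.0% without thinning, 50.1% at 50000 reads, 31.1% without the marker cells and 31.7% with 2 reads asked for. Without thinning, at 50000 reads and with 2 reads asked for, Lama4, Lamb1 and Lamc1 gave 55.8%, 47.9% and 21.8%, Lama5, Lamb1 and Lamc1 gave 13.3%, 8.32% and 2.46%, and Lama5, Lamb2 and Lamc1 gave 16.5%, 10.9% and 3.52%. Apart from depth and the number of cells or reads asked for, the cause was not tested. The alternatives without the cell numbered 564 or 260 and the chain ratios with the longest transcript were chosen after seeing the data. Cells carry no replicate label, so leaving out a replicate was not possible. No paired analysis was possible because all cells are of 1 group.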
